A study of Mus musculus with 5 samples.

Results

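This account follows 9 genes that code for the adaptor proteins and enzymes assembled around ADAP, the product of Fyb, in mouse lung natural helper cells. The genes are Fyb, Lcp2, Lat, Lat2, Grap2, Skap1, Skap2, Vav1 and Plcg1. They were picked as Fyb and genes of signalling proteins around ADAP, not all of them its direct partners, with earlier results of these data known, Fyb's included. All 9 were among the 19938 genes measured, each by 1 probe set that the array annotation ties to a single gene symbol. Natural helper cells are innate lymphoid cells of group 2, here taken by flow cytometry from the lungs of C57Bl/6 mice, naive and 6 to 8 weeks old, as CD127+ CD25+ Sca-1+ cells without lineage markers and with little or no c-Kit. The first group is 2 samples cultured for 3 days with 60 ng/ml PMA, a phorbol ester, and 500 ng/ml ionomycin, a calcium ionophore. The second is 3 unstimulated samples whose RNA was taken directly after the sort. Both groups share strain and sort, no cultured sample without the activators was analysed here, and culture and stimulation cannot be told apart. The labels call the source lung leukocytes and do not tie each sample to a mouse or a culture of its own. The p-values therefore reflect the spread among these 5 arrays only, and that spread may be technical.

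In T cells, an engaged antigen receptor leads the kinase ZAP-70 to phosphorylate the membrane scaffold LAT. GADS, the product of Grap2, ties LAT to SLP-76, the product of Lcp2, and this complex gathers VAV1 and phospholipase C gamma 1. The phospholipase makes diacylglycerol and inositol trisphosphate, and PMA and ionomycin are used in the laboratory to mimic these second messengers. ADAP binds SLP-76 and the SKAP proteins and links the complex to integrins and actin. Natural helper cells carry no rearranged antigen receptor, and the receptors that would use these adaptors in them are not given by the labels.

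Fyb and Grap2, the genes of ADAP and GADS, were lower after PMA and ionomycin, and the other 7 genes did not pass the test. Values are log2 expression values from RMA, on which a difference of 1 is a doubling, and differences are PMA and ionomycin minus unstimulated. The words rose and fell are kept for genes to which limma gave a Benjamini-Hochberg adjusted p under 0.05 over all genes. Of the 9 genes, 2 fell, where 0.963% of all genes fell, and none rose, where 0.737% of all genes rose (1.70% were called in either direction). Since the choice was made with those results known, these shares are background and no test of the set. At an unadjusted p under 0.05, 4 were lower, against 8.58% of all genes, and 0 were higher, against 11.3%. The arrays of the 2 groups did not overlap for Fyb, Grap2, Lat and Plcg1, all 4 lower, while 14.0% of all genes were lower and 32.5% were higher or lower without overlap. The median difference of the 9 was -0.39, and that of all genes was 0. In bulk samples, fewer cells of a type and less RNA per cell cannot be told apart.

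Fyb read 7.46 and 6.92 on PMA and ionomycin arrays 1 and 2, against 10.33, 10.43 and 10.09 on unstimulated arrays 1 to 3. Every stimulated value lay more than 2 units under the lowest unstimulated value, and the stimulated arrays differed from each other more than the unstimulated ones did. The fall was 8.51-fold (-3.09 ± 0.22 SE, limma adjusted p = 0.0358, n = 2 and 3 arrays). It was the 18th most negative difference among the 19938 genes.

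Grap2 read 6.29 and 6.24 on the PMA and ionomycin arrays, against 8.40, 8.68 and 8.53 on the unstimulated arrays. Both groups were tight, and their gap was many times the spread within either. Grap2 fell 4.83-fold (-2.27 ± 0.09 SE, limma adjusted p = 0.0229), the 80th most negative difference. The stimulated values lay above the median of all probe sets on their arrays (5.63 on both) and under the upper quartile (7.10 and 7.05).

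**Figure D1:**
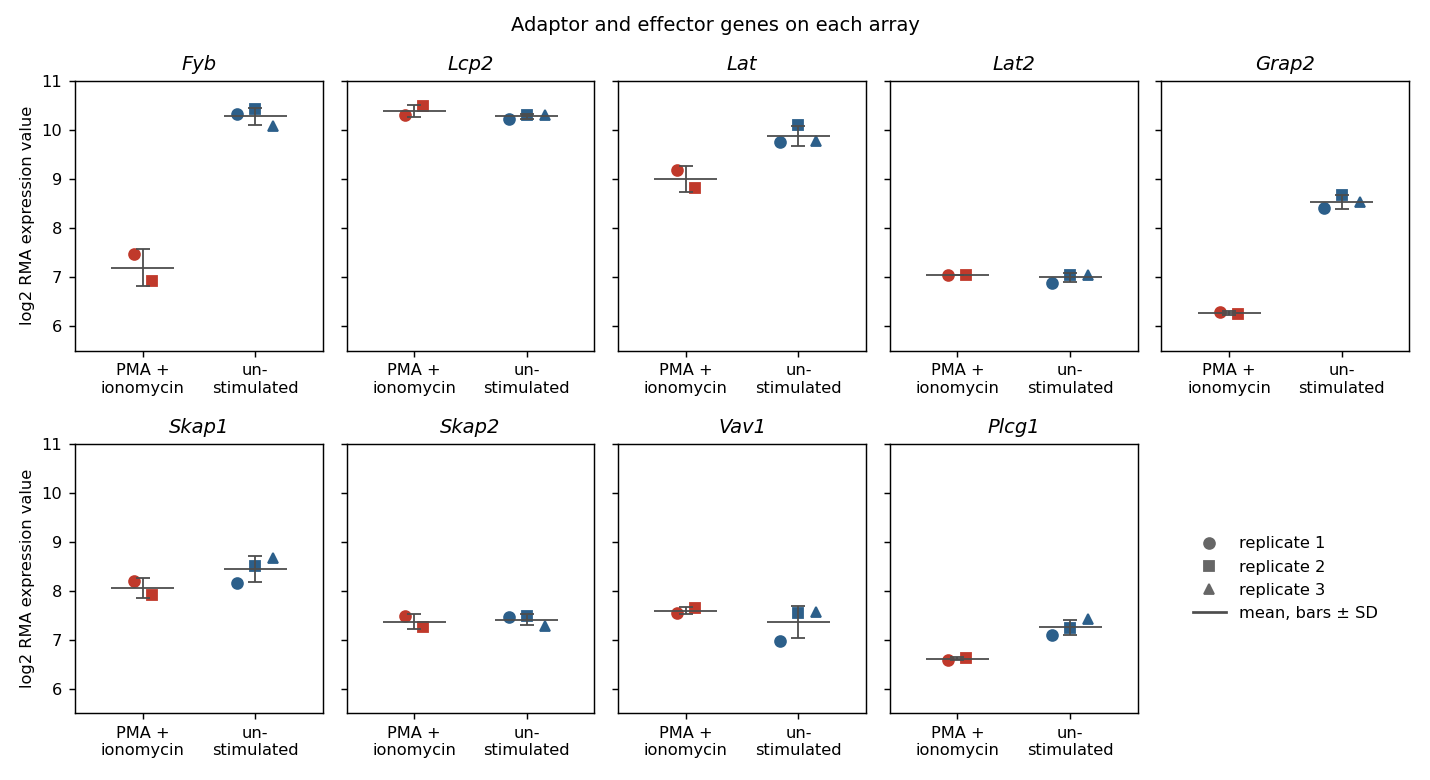
Log2 RMA values of the 9 genes on each array, PMA and ionomycin at the left of each panel (2 arrays) and unstimulated at the right (3 arrays), with horizontal lines for means and bars for SD. Fyb and Grap2 show the widest gaps between groups, and the points of Lcp2, Lat2, Skap1, Skap2 and Vav1 overlap.

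The calls of Fyb and Grap2 depended on which arrays were in the fit. Over leaving out each array in turn, the difference in Fyb ran from -3.36 to -2.82 (limma adjusted p = 0.0457 to 0.132) and that in Grap2 from -2.34 to -2.20 (0.0446 to 0.0881). Fyb lost its call without any 1 of the unstimulated arrays: limma adjusted p = 0.111 without array 1, 0.132 without array 2 and 0.0688 without array 3. Grap2 lost it likewise (0.0714, 0.0881 and 0.0587), and also without PMA and ionomycin array 1 (0.0502). No gene of the 19938 was called without unstimulated array 2 (limma; 3024 at an unadjusted p under 0.05), these 2 included.

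Summed levels of markers of other cells differed between the groups. The summed linear level of 8 genes of lung epithelium, endothelium and stroma, among them Scgb1a1 of club cells and Cdh5 of endothelium, was 594 to 745 on the PMA and ionomycin arrays, against 986 to 4234 on the unstimulated arrays. All 8 were lower by their means, with a median difference of -0.53, and none was called. Cdh5 (-2.74) and Scgb1a1 (-2.68) had the most negative differences, and Scgb1a1 was the highest of the 8 on each unstimulated array. The stromal genes Col1a1 (-0.09), Col3a1 (-0.12) and Pdgfra (-0.07) differed little, so the sum does not stand for every gene of the list. For 10 genes of macrophages, monocytes and neutrophils the sums were 353 to 383, against 570 to 1629, with 9 of 10 lower and none called. Lyz2 (-3.25) and S100a9 (-3.15), named after their values were seen, had the 14th and 16th most negative differences of all genes. The median difference of the 10 was -0.19. Csf1r (-0.07), Adgre1 (-0.02) and Marco (-0.03) differed little, and Fcgr1 was higher by 0.13. In both lists unstimulated array 1 was highest and array 3 lowest of the unstimulated arrays. Fyb was also lowest on unstimulated array 3 and was highest on array 2, and Grap2 was lowest on array 1 and highest on array 2. Against unstimulated array 3 alone, an alternative chosen after seeing the data, the differences were -2.89 in Fyb and -2.26 in Grap2, and no gene was called by limma (3739 at an unadjusted p under 0.05). The 4 measured platelet markers summed to 125 to 128, against 138 to 149, and none lay above the median of all probe sets on any array. B cell markers summed to 243 to 244, against 229 to 298, with none of 7 above the upper quartile. Natural killer cell markers summed to 228 to 319, against 215 to 356, with 6 of 7 lower by their means and none called. Mast cell and basophil markers summed to 198 to 207, against 279 to 366, with 6 of 8 lower and none called. Of these, Cpa3, named after its values were seen, differed by -2.80, while the median of the 8 was -0.08. T cell markers, which include Cd3 genes, summed to 1894 to 2219, against 1925 to 3163, with 7 of 10 lower and none called. On each array 8 or 9 of the 10 lay above the median of all probe sets, and 2 to 5 above the upper quartile. Cd3g, named after its values were seen, read 9.78 and 9.43, against 10.21, 10.56 and 10.24, without overlap (limma adjusted p = 0.145). The groups overlapped for Cd3d and Cd3e. Cd28, named in the same way, went the other way without overlap, with 9.19 and 9.22, against 8.14, 8.11 and 7.08 (1.43, limma adjusted p = 0.189). The part of these other cell types in the falls of Fyb and Grap2 was not tested beyond these values. All 12 measured natural helper genes, Gata3, Rora, Id2 and Il7r among them, lay above the median of all probe sets on all 5 arrays. By their means 7 of the 12 were lower, and 4 fell: Rora (-0.81), Id2 (-0.78), Il7r (-0.77) and Il17rb (-3.23), named after their values were seen. Thy1 (-1.34) and Klrg1 (-1.27) were lower without overlap and not called. The summed level of the 12 was 15742 to 16522 on the PMA and ionomycin arrays, against 16402 to 18339 on the unstimulated arrays. That sum includes 5 genes higher by their means and not called, among them the cytokine genes Il13 (2.41) and Il5 (0.71). It therefore does not show how the other genes of the list changed.

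The windows around the start sites of Fyb and Grap2, the genes that fell, are printed with that of Lcp2, whose groups overlapped, to show what the sequences share. Sequences are RefSeq's, build GRCm38.p6, from 250 bases before to 50 bases after the start of the gene, and 7 of the 9 genes matched. Fyb lies at chr15:6579597-6579896 and Grap2 at chr15:80623233-80623532, and Lcp2 at chr11:34046678-34046977, all 3 on the plus strand. Capitals mark matches, on either strand, to 9 short motifs: AGATAA for GATA factors, TGAGTCA for AP-1, AGGAAG for ETS factors, TGTGGT for RUNX factors, TGGAAA for NFAT, TTCNNNGAA for STAT factors, GGGCGG for the GC box, CCAAT for the CCAAT box and TATAAA for the TATA box. The AGGAAG and TTCNNNGAA motifs can overlap, as can TGGAAA and TTCNNNGAA.
Fyb: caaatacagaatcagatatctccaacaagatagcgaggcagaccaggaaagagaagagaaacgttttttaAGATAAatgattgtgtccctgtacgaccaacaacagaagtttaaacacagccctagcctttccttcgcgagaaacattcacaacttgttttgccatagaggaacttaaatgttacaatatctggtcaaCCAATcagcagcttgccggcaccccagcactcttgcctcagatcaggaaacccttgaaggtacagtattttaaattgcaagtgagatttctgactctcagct
Grap2: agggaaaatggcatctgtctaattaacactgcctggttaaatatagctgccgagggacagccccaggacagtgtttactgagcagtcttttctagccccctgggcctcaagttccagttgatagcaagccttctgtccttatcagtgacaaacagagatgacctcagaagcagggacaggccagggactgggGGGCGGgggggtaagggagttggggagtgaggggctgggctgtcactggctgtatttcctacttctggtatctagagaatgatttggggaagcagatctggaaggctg
Lcp2: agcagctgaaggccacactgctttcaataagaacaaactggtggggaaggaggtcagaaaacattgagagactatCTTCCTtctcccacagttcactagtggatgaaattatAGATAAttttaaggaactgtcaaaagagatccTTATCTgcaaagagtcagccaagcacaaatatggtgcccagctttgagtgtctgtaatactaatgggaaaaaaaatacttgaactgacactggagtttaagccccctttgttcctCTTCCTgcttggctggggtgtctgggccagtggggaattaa

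The Fyb and Grap2 windows had no motif of the 9 in common. Fyb held AGATAA at -180 from the start site and CCAAT at -52, motifs found in 11.2% and 37.4% of all 32851 windows. Grap2 held GGGCGG at -58, a motif found in 35.7% of windows. Lcp2 held AGATAA at -138 and, on the other strand, at -106, and AGGAAG, found in 35.4% of windows, on the other strand at -175 and 9. G and C made up 42% of the Fyb window, 53% of the Grap2 window and 43.3% of the Lcp2 window, against a median of 52.7% over all windows. A match is a description of the letters, not of a bound factor.

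The membrane scaffolds Lat and Lat2 were not called. Lat, which codes for the scaffold of T cells, read 9.18 and 8.82 on the PMA and ionomycin arrays, against 9.75, 10.11 and 9.77 on the unstimulated arrays. The groups did not overlap, and the difference of -0.87 ± 0.18 SE did not pass the test (limma adjusted p = 0.119, 95% interval -1.40 to -0.34). Lat2, which codes for the related scaffold NTAL of B cells, mast cells and myeloid cells, read 7.05 and 7.05, against 6.89, 7.05 and 7.05. The groups overlapped, and the difference of 0.05 ± 0.07 SE had an interval of -0.14 to 0.25 (limma adjusted p = 0.654). Its sign turned after centring on reference genes (-0.09). The within-array difference between Lat and Lat2 was 2.13 and 1.77 on the PMA and ionomycin arrays, against 2.87, 3.05 and 2.72 on the unstimulated arrays, a change of -0.93 ± 0.19 SE (exact two-sided permutation p = 0.1, the smallest that 10 splits of 2 and 3 arrays can give).

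Lcp2, the gene of SLP-76, which GADS and ADAP both bind, read 10.31 and 10.48 on the PMA and ionomycin arrays, against 10.22, 10.31 and 10.31 on the unstimulated arrays. The groups overlapped, and the difference was 0.12 ± 0.07 SE (limma adjusted p = 0.472, 95% interval -0.08 to 0.31), and -0.02 after centring on reference genes. Fyb minus Lcp2 was -2.85 and -3.56 on the PMA and ionomycin arrays, against 0.11, 0.12 and -0.22 on the unstimulated arrays. That change of -3.20 ± 0.30 SE was the widest of 11 gene pairs compared (exact permutation p = 0.1, adjusted p = 0.138 over the pairs), and it ran from -3.56 to -2.85 with each array left out. Fyb alone differed by -3.09, so this change mostly repeats the fall of Fyb and is no separate result about Lcp2.

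The SKAP adaptors, which bind ADAP, did not pass the test. Skap1, the gene of SKAP55, read 8.20 and 7.92 on the PMA and ionomycin arrays, against 8.15, 8.51 and 8.67 on the unstimulated arrays, and the groups overlapped (-0.39 ± 0.20 SE, limma adjusted p = 0.436, 95% interval -0.97 to 0.20). Skap2, the gene of SKAP-HOM, read 7.48 and 7.26, against 7.47, 7.48 and 7.28, with the groups interleaved (-0.04 ± 0.11 SE, adjusted p = 0.871, interval -0.35 to 0.27). Fyb minus Skap1 was -0.74 and -0.99, against 2.18, 1.92 and 1.42, and Fyb minus Skap2 was -0.02 and -0.34, against 2.86, 2.95 and 2.81. Neither overlapped between groups, and each had the smallest exact permutation p of 0.1. Both gaps mostly repeat the fall of Fyb. Skap1 minus Skap2 overlapped, with a change of -0.35 ± 0.26 SE (exact permutation p = 0.3).

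**Figure D2:**
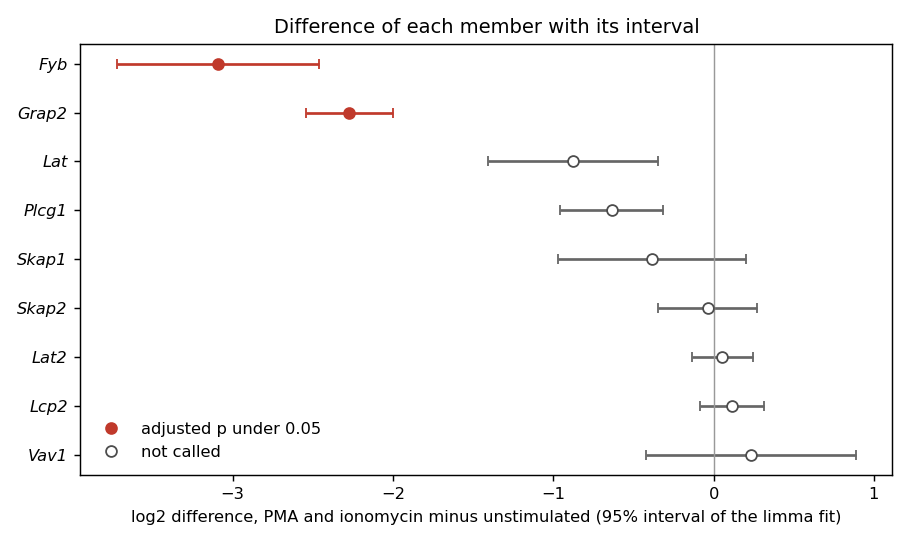
Difference of each gene, stimulated minus unstimulated in log2 units, with the 95% interval of the limma fit (n = 2 and 3 arrays). Filled points, Fyb and Grap2, passed an adjusted p under 0.05, the intervals of Lat and Plcg1 lie below 0 without passing it, and the other 5 intervals include 0.

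The enzymes of the complex did not pass the test either. Plcg1, the gene of phospholipase C gamma 1, read 6.60 and 6.64 on the PMA and ionomycin arrays, against 7.09, 7.25 and 7.42 on the unstimulated arrays. The groups did not overlap (-0.64 ± 0.11 SE, limma adjusted p = 0.0930, 95% interval -0.96 to -0.32). Plcg1 passed in 3 of 18 alternative settings and Lat in 2 of 18. Vav1, which codes for a guanine nucleotide exchange factor that acts on the actin cytoskeleton, read 7.55 and 7.64, against 6.98, 7.55 and 7.56, and the groups overlapped (0.23 ± 0.23 SE, adjusted p = 0.590, interval -0.42 to 0.89). The widest departure in Vav1 was unstimulated array 1, which was also the lowest of the 5 arrays for Lcp2 and Lat2 and the highest for the markers of lung epithelium, endothelium and stroma. Without that array the difference in Vav1 was 0.04. For Lcp2, Lat2 and Vav1, 2 or more arrays shared 1 value to 5 decimals, as did arrays for 62% of all genes, so small differences in these 3 genes are not resolved finely.

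Relatives of the 9 genes were compared within arrays. The paralog Plcg2, which serves B cells and myeloid cells, read 6.10 on both PMA and ionomycin arrays, against 6.04, 6.24 and 6.10 on the unstimulated arrays. Plcg1 minus Plcg2 changed by -0.61 ± 0.13 SE without overlap (exact permutation p = 0.1). Vav3 read 7.41 and 7.39, against 7.90, 8.15 and 7.87 (-0.58 ± 0.11 SE, limma adjusted p = 0.0992), and Vav1 minus Vav3 changed by 0.81 ± 0.23 SE without overlap (exact permutation p = 0.1). Vav1 minus Vav2 overlapped (0.31 ± 0.23 SE, exact permutation p = 0.3). Grap, the gene closest in kind to Grap2, read 5.99 and 6.24, against 6.57, 6.39 and 6.24, and was not called (limma adjusted p = 0.408). Grap2 minus Grap was 0.30 and -0.0016 on the PMA and ionomycin arrays, against 1.84, 2.28 and 2.29, a change of -1.99 ± 0.22 SE (exact permutation p = 0.1).

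SLP-76 has the relatives BLNK of B cells and CLNK. Clnk read 5.12 and 5.31 on the PMA and ionomycin arrays, against 5.51, 5.68 and 5.71 (-0.42, limma adjusted p = 0.139), and Lcp2 differed by 0.12. Lcp2 minus Clnk was 5.19 and 5.17 on the PMA and ionomycin arrays, against 4.71, 4.63 and 4.60, a change of 0.54 ± 0.04 SE (exact permutation p = 0.1). Lcp2 minus Blnk changed by 0.27 ± 0.10 SE (exact permutation p = 0.2), and Blnk lay near the lower quartile of all probe sets on every array (4.36 to 4.56). In all, 8 of 11 pairs reached the smallest exact p of 0.1, and after Benjamini-Hochberg adjustment over the pairs these 8 had 0.138, so none passed, and with 10 splits none could have passed.

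**Figure D3:**
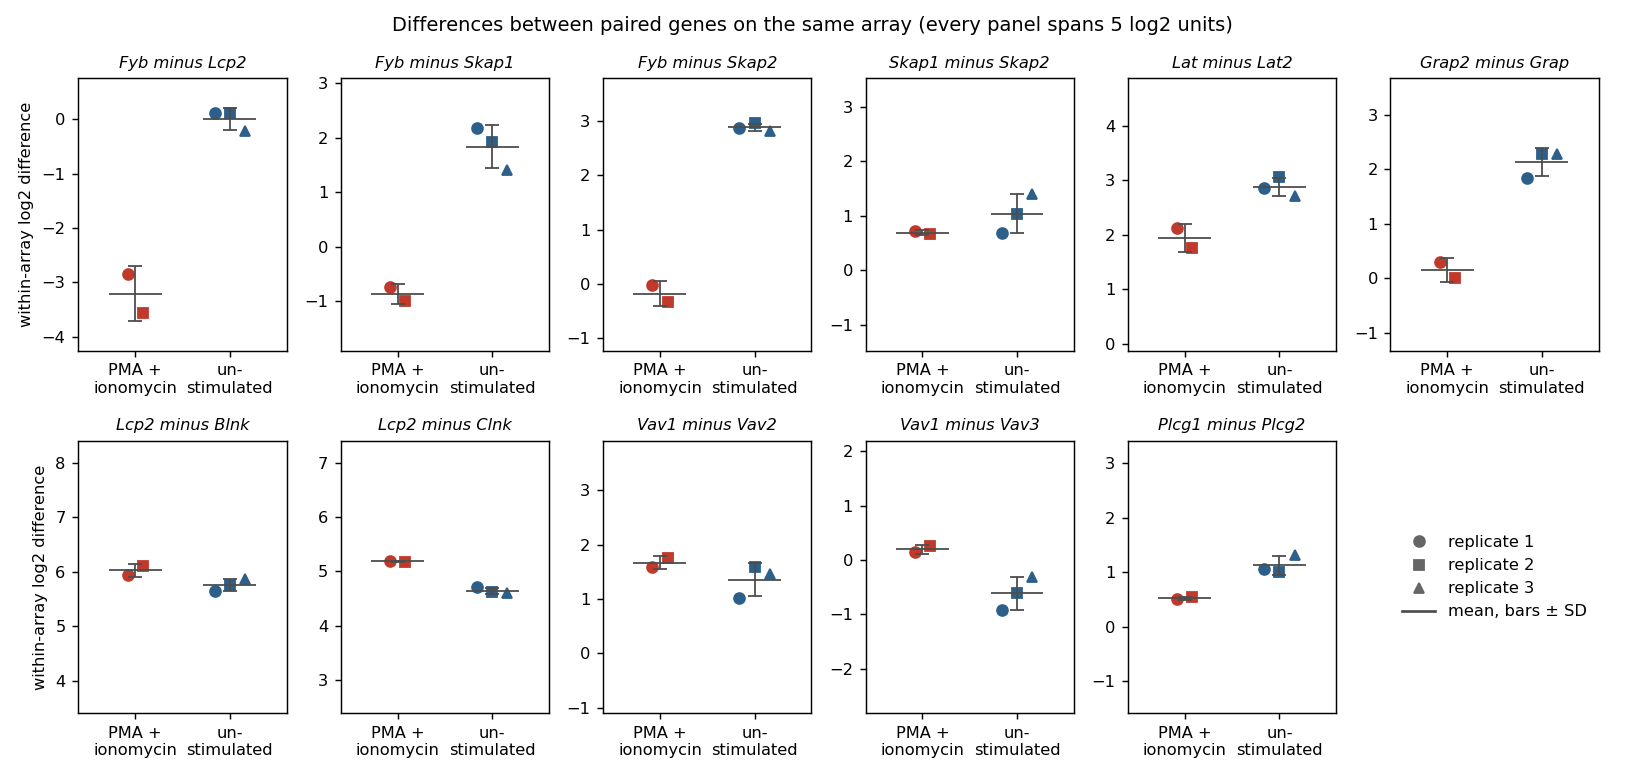
Within-array log2 differences between the 2 genes of each of 11 pairs, PMA and ionomycin at the left (2 arrays) and unstimulated at the right (3 arrays), with lines for means and bars for SD. The 3 pairs that set Fyb against a partner have the widest gaps, which mostly repeat the fall of Fyb itself. Skap1 minus Skap2 and Vav1 minus Vav2 overlap.

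Of 91 genes in 4 wider lists of antigen receptor signalling, 85 were measured, of which 3 fell and none rose (at an unadjusted p under 0.05, 19 were lower and 8 higher). Over all genes 0.963% fell and 0.737% rose, and 8.58% were lower and 11.3% higher at an unadjusted p under 0.05. Themis, which codes for a T cell adaptor that binds GRB2, read 5.51 and 5.44 on the PMA and ionomycin arrays, against 6.48, 6.53 and 6.35 (-0.98 ± 0.07 SE, limma adjusted p = 0.0352). It was the only one of 26 other adaptors called. Rasgrp1, which codes for a Ras activator that binds diacylglycerol, read 6.61 and 6.38, against 8.02, 8.43 and 8.33 (-1.76 ± 0.17 SE, limma adjusted p = 0.0469). It was the only one of 19 measured effector genes called, and 13 of the 19 were lower by their means, as were 8702 of all 19938 genes. Itga4, the integrin alpha 4 gene, read 7.83 and 7.89, against 9.64, 9.80 and 9.86 (-1.91 ± 0.08 SE, limma adjusted p = 0.0229), and was the only one of 21 actin and integrin partners called. Rasgrp1 lost its call with each of the 5 arrays left out (limma adjusted p = 0.0899 to 0.143), as did Themis (0.0508 to 0.114), and Itga4 lost it with every array left out (0.0524 to 0.107) but PMA and ionomycin array 2 (0.0440).

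None of the 19 measured kinases, phosphatases and regulators passed the test, and their median difference was 0. The groups did not overlap for 10 of the 19, 5 higher and 5 lower, where 32.5% of all genes did not overlap. The kinase gene Zap70 read 8.79 and 8.85 on the PMA and ionomycin arrays, against 7.27, 7.73 and 7.46 on the unstimulated arrays (1.33 ± 0.16 SE, limma adjusted p = 0.0602). The phosphatase genes Ubash3b (1.44 ± 0.15 SE, adjusted p = 0.0526) and Ptpn6 (1.20 ± 0.18 SE, adjusted p = 0.0773) also had separate groups, with higher stimulated values. Among those lower without overlap were the kinase gene Yes1 (-0.73 ± 0.24 SE, limma adjusted p = 0.226) and Ubash3a (-0.67 ± 0.20 SE, adjusted p = 0.205). These 5 were named after their values were seen, and Zap70 passed in 5, Ubash3b in 6 and Ptpn6 in 4 of 18 alternative settings. Named in the same way, the inhibitory adaptor gene Sla differed by 1.09 ± 0.15 SE (adjusted p = 0.0707), the adaptor gene Lax1 by -1.10 ± 0.13 SE (0.0613) and Itpr2, an inositol trisphosphate receptor gene, by -1.39 ± 0.15 SE (0.0526).

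**Figure D4:**
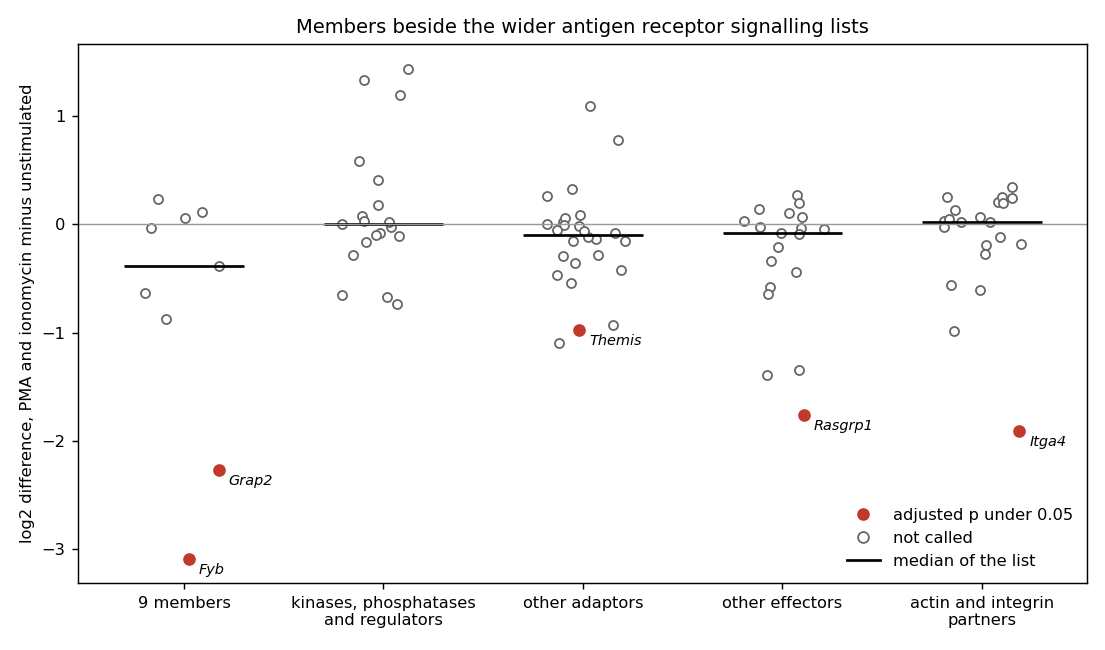
Differences of the 9 genes beside those of 4 wider lists, stimulated minus unstimulated in log2 units, 1 point a gene and a line at each list's median. Filled points passed an adjusted p under 0.05: Fyb, Grap2, Themis, Rasgrp1 and Itga4, all lower.

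The other 20 actin and integrin partners did not pass the test. Evl, the Ena/VASP family member known to bind ADAP, read 7.22 and 7.15 on the PMA and ionomycin arrays, against 7.64, 7.85 and 7.88 (-0.61 ± 0.09 SE, limma adjusted p = 0.0795), without overlap. Apbb1ip, the gene of the Rap1 binding protein RIAM, read 7.86 and 7.94, against 8.17, 8.48 and 8.71 (-0.56 ± 0.19 SE, adjusted p = 0.238). Evl and Apbb1ip were named after their values were seen. The median of the 21 genes was 0.02, against 0 for all genes.

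The genes whose pattern over the 5 arrays lay nearest to that of Fyb, each centred on its own mean, were Kit, Il17rb, Klf4, Samd9l and Neurl3, at Euclidean distances of 0.31 to 0.55 log2 units. Kit, the stem cell factor receptor gene, read 7.12 and 6.84 on the PMA and ionomycin arrays, against 9.88, 9.97 and 9.69 on the unstimulated arrays. The choice by distance to Fyb favours genes with the same direction and a gap of similar size, so their values are a description. Their order over the unstimulated arrays was not always that of Fyb. Fyb and Kit were highest on array 2, while Il17rb, Klf4, Samd9l and Neurl3 were highest on array 1. Kit, Il17rb, Klf4 and Samd9l passed the test (limma adjusted p = 0.0229 to 0.0492), and Neurl3 did not (0.0510). Kit, Klf4 and Samd9l lost their calls without any 1 of the unstimulated arrays (limma adjusted p = 0.0541 to 0.162), Klf4 also without PMA and ionomycin array 2 (0.0501), and Il17rb lost its call with each array left out (0.0538 to 0.162).

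**Figure D5:**
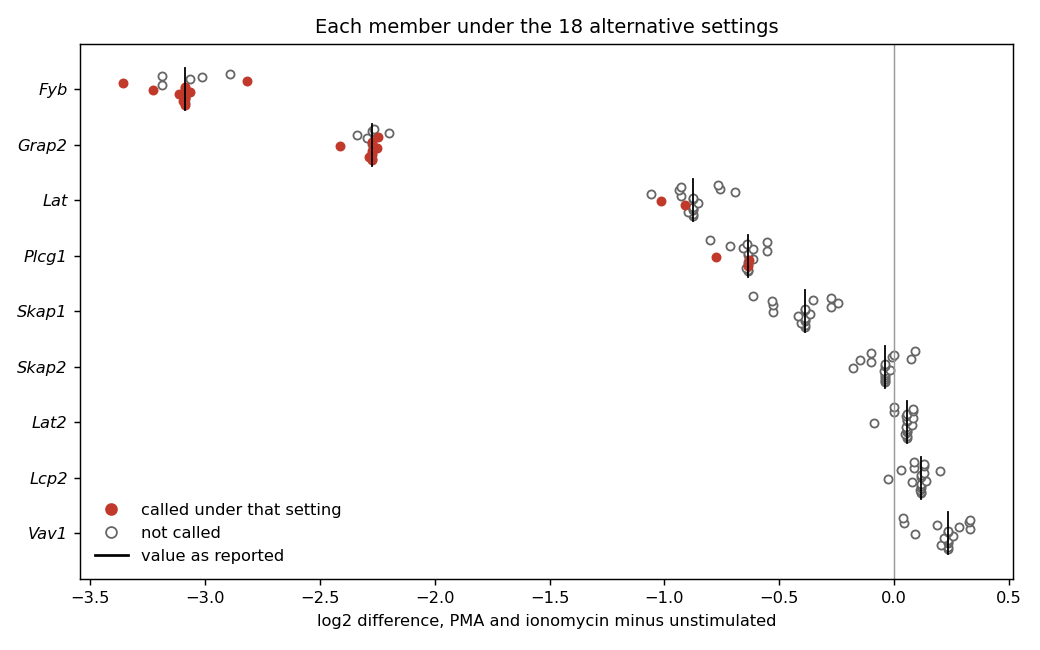
Difference of each of the 9 genes, stimulated minus unstimulated in log2 units, under 18 alternative settings (points, filled where called) with the reported value as a vertical line. Fyb and Grap2 stay between -3.36 and -2.20 in every setting and are called in 11 of 18 each, while the points of Lcp2, Lat2 and Skap2 lie on both sides of 0.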

How the data were processed

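The deposited values are log2 expression values deposited by the authors and made with RMA, a probe-level averaging method, as named in the submitters' processing notes; its version and the set of arrays normalized together are not given in the sources used here. Per the labels' protocols, 6 micrograms of Trizol-extracted RNA were labelled with biotin for a 1-colour Affymetrix array, and stimulated cells were kept in 200 microlitres of medium. The number of arrays, 2 and 3, limits the precision, and there were no detection calls. Of 35556 probe sets, 21789 carried 1 gene symbol, 1621 several and 12146 none here; the probe set with the highest mean was used per gene. Two-group differences were fitted with limma 3.58.1 in R 4.3.3 (lmFit, eBayes, no filter), with standard errors (SE) and 95% intervals from the moderated fit. On simulated data with 200 changed genes, it recovered 32% at a log2 size of 0.5, 54.4% at 1, 83.4% at 2 and 90.2% at 3. A gene that did not pass may therefore still differ. Pairs used an exact permutation test over 10 splits. The text names the 9 members, the pair genes, up to 4 called genes per wider list, the 5 genes nearest to Fyb, and genes said to be chosen later. Members and lists were chosen with earlier results of these data known. Alternatives were moderation, array weights, 2 filters, probe set averaging, 3 normalizations, 2 thresholds, a replicate block, each array left out, and an added fit on unstimulated array 3 alone. Figures were drawn with matplotlib 3.10.9 in Python 3.11.15.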

Additional observations from a re-analysis of the deposited data

How the results depend on the processing

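Of the 9 genes, 6 kept the sign of their difference under all 18 alternatives: Fyb, Grap2, Lat, Skap1, Vav1 and Plcg1. Lcp2 turned to -0.025 and Lat2 to -0.086 after centring on the reference genes, which shifted the median of all genes by -0.14. Lat2 ran from -0.0011 to 0.083 with each array left out, reversed without unstimulated array 1, and was -0.0011 with array 3 as the lone unstimulated one. Skap2 ran from -0.15 to 0.072, reversed without PMA and ionomycin array 2, and was 0.092 against unstimulated array 3 alone. Plcg2 ran from -0.073 to 0.027, reversed without unstimulated array 2. Members called lower numbered 4 after quantile normalization and after reference gene centring (Fyb, Grap2, Lat and Plcg1), 1 with robust variances and 0 at an adjusted p under 0.01, and 0 to 2 with each array left out. Fyb missed the threshold with robust variances (limma adjusted p = 0.0509). All-gene counts higher and lower were 45 and 66 with robust variances, 826 and 715 above the median, 319 and 356 above the lower quartile, 825 and 729 after quantile normalization, 660 and 526 after median centring, 1080 and 1541 after reference gene centring, 0 and 0 at an adjusted p under 0.01, and 63 and 121 at 2-fold or more, against 147 and 192 as reported. With each array left out they ran from 0 to 361 higher and 0 to 413 lower. Counts over the wider lists were 6 higher and 11 lower above the median, 2 and 6 above the lower quartile, 5 and 11 after quantile normalization, 4 and 7 after median centring, 5 and 19 after reference gene centring, 1 higher with array weights, 1 lower with robust variances and 0 at an adjusted p under 0.01, and 0 to 1 lower with each array left out. Against unstimulated array 3 alone, which assumes that the lone array varies like the others, no gene was called, 0 members and 0 wider list genes included. With the replicate block 0 genes were called higher and 0 lower, 0 members and 0 wider list genes among them, and 3568 genes had an unadjusted p under 0.05; Fyb differed by -3.19 (adjusted p = 0.185) and Grap2 by -2.28 (0.170). The numbers pair only 2 arrays of each group, and same-numbered arrays' deviations correlated at -0.14 and -0.06 across genes. These values cannot show whether same-numbered samples share a mouse or a culture, which the labels do not say. The causes of these changes were not tested.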

Other observations

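Both probe sets that the array annotation assigns to Fyb and Phb together stood apart from the Fyb probe set. They averaged 10.0 and 10.1 on the PMA and ionomycin arrays, against 8.81 and 8.85 on the unstimulated arrays, differences of 1.20 and 1.22 on the log2 scale. The RefSeq accessions listed for both belong to Phb, the prohibitin gene, and none to Fyb. They were left out of every comparison because they carry more than 1 symbol.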
